A study of Homo sapiens with 6 samples.

Results

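Transcripts of the HERVK endogenous retroviruses outside the HML-2 group were described in H9, a long-established line of human embryonic stem cells, by repeat name. The pattern used took 58 names from the count table, and 57 of these were also listed in the CPM table, out of 7383 names there. The remaining match, LTR3B_v, was left out. Of the 57 names, 37 belong to 9 HERVK families: 9 are internal regions and 28 are long terminal repeats (LTRs). The other 20 run from MER90 to MER99 and were taken because they begin with MER9. They are names of other retroviruses and of DNA transposons, which goes against a description of all members as HERVK elements, so they are given apart.

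Each of 3 culture conditions had 2 total-RNA libraries. Primed cells were kept in mTeSR, a feeder-free medium, and RSeT cells in RSeT, a medium sold for a naive-like state. RSeT+DT cells were grown in RSeT with 10 nM DZNep and 5 nM TSA and collected at 48 hours. DZNep blocks S-adenosylhomocysteine hydrolase and so lowers methylation reactions, including that of EZH2, while TSA (trichostatin A) blocks histone deacetylases. All groups are this 1 line, for which the labels give no genetic change, and both inhibitors were given together, so their effects cannot be told apart. The labels do not name separate cultures, and p-values therefore cover only the spread between libraries, which could be technical.

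HERVK elements are remains of betaretroviruses that entered the primate germline. A full copy has an internal region with remnants of gag, pol and env, flanked by LTRs that hold the promoter and the signal for the end of the transcript. Many copies have since been reduced to solo LTRs, some of which act as promoters or enhancers of host genes. In embryonic stem cells such elements are commonly silenced by KRAB zinc finger proteins with TRIM28 and by DNA and histone methylation. The groups are numbered HML for their likeness to mouse mammary tumor virus. Those described here are HML-1 (HERVK14), HML-3 (HERVK9), HML-4 (HERVK13), HML-5 (HERVK22), HML-6 (HERVK3), HML-7 (HERVK11D), HML-8 (HERVK11), HML-9 (HERVK14C) and HML-10 (HERVKC4).

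Repeat counts summed to between 11520770 and 38312112 per library. The 37 family entries held 220170 to 617721 of them, and the lowest count of any entry in any library was 29. All 37 entries and all 20 MER90 to MER99 names passed the filter on low counts. Levels are the deposited CPM. Each is a sum over all copies of an element and is not scaled by length or copy number, so levels of different elements show only their share of the counts. Fold changes are on the log2 scale from edgeR with TMM factors. Library totals in place of TMM shifted them by a median of -0.13 for RSeT against primed, -0.15 for RSeT+DT against RSeT and -0.28 for RSeT+DT against primed. A fit with TMM but without simple repeats, small RNA and ribosomal RNA is called interspersed scaling. Interspersed repeats and satellites remained in it. It shifted the fold changes by -0.16, 0.22 and 0.058. The filter, dispersions and adjusted p were also redone on that smaller set, so its calls can differ for reasons besides the scaling. Repeats tied to other cell states were detected in every group. The 14 trophoblast repeats summed to 2890.5 and 3001 CPM for primed, 3507 and 3575 for RSeT and 3146 and 3232 for RSeT+DT libraries, and the 6 repeats of the 8-cell list, which include the member LTR14B, to 1635 and 1698, 1855 and 1901 and 1487 and 1523. The pair listed for primed pluripotent cells, HERVH-int and LTR7, was lowest in primed cells. HERVH-int had means of 25174, 74528.5 and 116741 CPM, and LTR7 of 3447, 9538 and 14999 CPM, in primed, RSeT and RSeT+DT cells. None of these repeats was at 0 in any library. Their part in the results was not tested, and in bulk RNA fewer cells of a type and less RNA per cell cannot be told apart.

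One LTR entry, MER11B of HML-8, held most of the counts of the families. Its level was 21238 and 19473 CPM in primed, 13300.5 and 12489 CPM in RSeT and 18251 and 16955 CPM in RSeT+DT cells. In CPM the groups did not overlap, with RSeT lowest and primed highest. The order of primed and RSeT+DT turned with the scaling. Their fold change, RSeT+DT against primed, was 0.076 with TMM and 0.13 under interspersed scaling. MER11B made up 88.9 ± 0.915% of the summed family CPM for primed, 81.9 ± 0.794% for RSeT and 89.4 ± 0.981% for RSeT+DT (SD, n = 2 each). The summed CPM of the families was 22885 ± 1168 for primed, 15737 ± 548 for RSeT and 19684 ± 809 for RSeT+DT, and without MER11B 2529.8 ± 80.1, 2843 ± 25.9 and 2081 ± 107 (SD, n = 2 each). Per summed interspersed counts on the same scale, the sums without MER11B were 4084 ± 8.77, 4138 ± 9.45 and 3373 ± 110.1, with RSeT close to primed. RSeT cells thus had the lowest CPM sum with MER11B and the highest without it, and the families are described entry by entry for that reason.

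The first comparison, RSeT against primed, sets the naive-like culture beside the primed one. By edgeR's quasi-likelihood test at an adjusted p under 0.05, 15 of the 37 entries rose, 7 fell and 15 did not pass. These are 40.5% and 18.9% of the entries. Among all 4665 tested repeats 22.8% rose and 23.8% fell, and among the 1136 interspersed repeats 50.8% rose and 8.01% fell. The median log2 fold change was 0.098 for the entries, 0.16 for interspersed repeats and -0.030 for all repeats. The split was 12 up and 11 down under interspersed scaling, and 12 up and 9 down with library totals. Of the 9 internal regions 5 rose and 2 fell, and of the 28 LTRs 10 rose and 5 fell.

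The internal region of HML-8, HERVK11-int, had the largest fold change of the 37 entries in this comparison (1.114). The LTR entry LTR22C was nearly level with it (1.107, SE 0.22), so the order of these entries is not settled. It stood at 259 and 272 CPM in primed, 525 and 524 CPM in RSeT and 261 and 309.7 CPM in RSeT+DT cells. Both RSeT libraries were above the other 4, while primed and RSeT+DT libraries overlapped. The rise was 1.11 (SE 0.048; adjusted p = 3.9e-16), at percentile 96.3 of the interspersed repeats, and it passed in all 17 alternatives, between 0.95 and 1.14. HERVK11D-int, the internal region of HML-7, had few counts, 56 and 44 in primed and 214 and 89 in RSeT libraries, or 3.33 and 3.23 against 5.59 and 5.18 CPM. It rose by 0.85 (SE 0.19; adjusted p = 0.00066) with no overlap. Lack of overlap in CPM was seen in most of the 37 entries in this comparison. It was also seen with hardly any change, as in LTR22A (-0.0037) and LTR14B (-0.010).

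**Figure D1:**
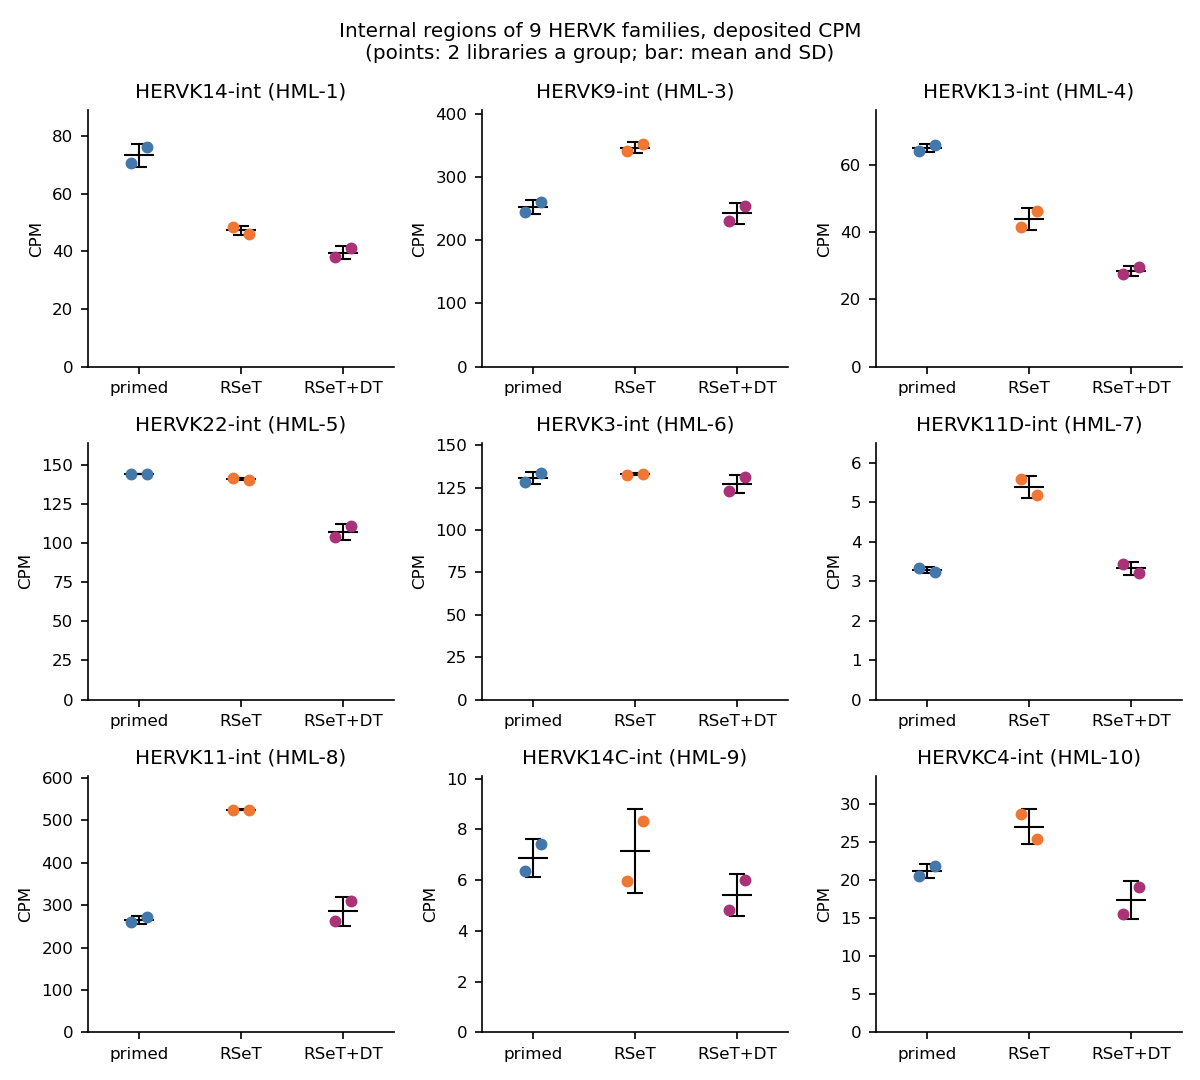
Deposited CPM (vertical axes, from 0) of the 9 internal regions in each condition; points are the 2 libraries and bars the mean and SD. HERVK11-int has a mean of 266 CPM in primed and 525 in RSeT cells, and HERVK13-int steps from 64.9 to 43.8 and 28.5 CPM.

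HERVK9-int of HML-3 and HERVKC4-int of HML-10 were also highest in RSeT cells. HERVK9-int had 244 and 260.2 CPM in primed, 341 and 353 CPM in RSeT and 231 and 254 CPM in RSeT+DT cells, a rise of 0.59 (SE 0.037; adjusted p = 9.8e-13). HERVKC4-int, known from an intron of the long form of the complement C4 genes, had 20.6 and 21.9 CPM in primed, 28.7 and 25.4 CPM in RSeT and 15.6 and 19.2 CPM in RSeT+DT cells and rose by 0.49 (SE 0.098; adjusted p = 0.00018). Reads of a host transcript that spans a copy are counted with the element, and their share was not tested. HERVK3-int of HML-6 passed with a small change of 0.15 (SE 0.043; adjusted p = 0.0046), although its CPM overlapped between primed (128 and 133) and RSeT cells (133 and 133). That call was lost under interspersed scaling (-0.0068), with library totals (0.022) and without primed replicate 1 (0.16).

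The internal regions of HML-1 and HML-4 were lower in RSeT cells. HERVK14-int went from 70.4 and 76.2 to 48.3 and 46.1 CPM, a fall with a log2 fold change of -0.49 (SE 0.060; adjusted p = 1.7e-07). HERVK13-int went from 64.1 and 65.7 to 41.6 and 46.1 CPM, also a fall (-0.45, SE 0.065; adjusted p = 3.3e-06). Neither overlapped between the groups, and the fold changes lay at percentiles 2.99 and 3.52 of the interspersed repeats. HERVK22-int of HML-5 had 144 and 144 against 142 and 141 CPM (0.10, SE 0.043) and HERVK14C-int of HML-9 6.36 and 7.41 against 5.98 and 8.32 CPM (0.14, SE 0.17). Neither passed with TMM, and both were negative under interspersed scaling (-0.059 and -0.031). HERVK22-int passed as higher in 6 of 17 alternatives, RLE among them (0.13), and had the opposite sign in 4.

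Within HML-8 the LTRs did not move as one. MER11A, at 195 and 204 CPM in primed and 232 and 242 CPM in RSeT cells, rose by 0.38 (SE 0.039), and MER11C, at 419.6 and 445 CPM and 487 and 489 CPM, by 0.31 (SE 0.041). MER11B had a fold change of -0.53 (SE 0.044; adjusted p = 2.2e-10), at percentile 2.46 of the interspersed repeats. All 3 kept their call in the 17 alternatives. MER11 LTRs are known targets of the KRAB zinc finger protein ZNF808. After the values were seen, MER11B was set beside 7SLRNA, the abundant RNA of the signal recognition particle, which had 221134 and 205322 CPM in primed, 147245 and 141036 CPM in RSeT and 212616 and 191692 CPM in RSeT+DT cells. MER11B came to 9.60 and 9.48% of the 7SLRNA level for primed, 9.03 and 8.85% for RSeT and 8.58 and 8.84% for RSeT+DT. HERVK11-int came to 0.117 and 0.133%, 0.357 and 0.371% and 0.123 and 0.162%. As a share of 7SK, another abundant small RNA, MER11B came to 93.6 and 86.4%, 85.1 and 81.2% and 79.3 and 76.0%. Whether reads of other RNAs enter the MER11B counts was not tested.

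**Figure D2:**
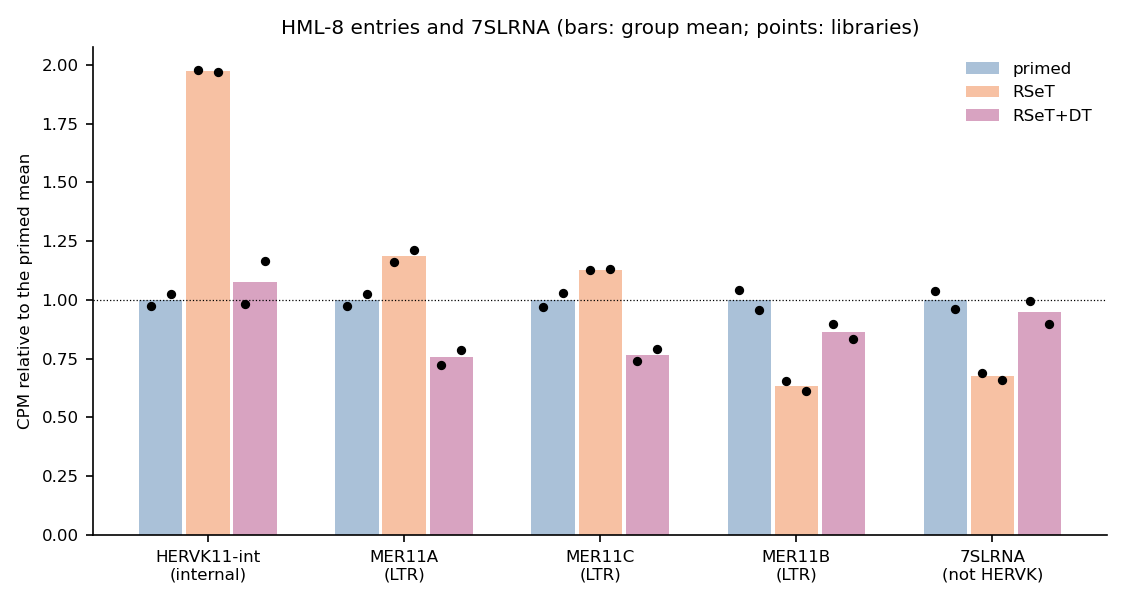
CPM of the HML-8 entries and of 7SLRNA divided by each one's primed mean (vertical axis, from 0); bars are group means and points are libraries. HERVK11-int, MER11A and MER11C are highest in RSeT cells (525, 237 and 488 CPM), where MER11B (12895 CPM) and 7SLRNA (144140.0 CPM) are lowest.

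The LTRs of HML-6 also split. LTR3A had 31.0 and 33.8 CPM in primed, 53.1 and 52.7 CPM in RSeT and 60.5 and 59.4 CPM in RSeT+DT cells. The 3 groups did not overlap, and the rise from primed to RSeT was 0.84 (SE 0.066; adjusted p = 7.6e-11). LTR3B_ had 18.8 and 19.0, 13.8 and 12.6 and 10.8 and 11.8 CPM in the same order and a fold change of -0.37 (SE 0.11), which passed but was lost in DESeq2 (-0.35), without primed replicate 1 (-0.35) and without RSeT replicate 2 (-0.30). LTR3 (-0.14) and LTR3B (-0.11) did not pass with TMM, and LTR3 passed as lower under interspersed scaling (-0.30) and with library totals (-0.27).

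Of the 9 LTRs of HML-5, 5 rose and none fell with TMM, a share near the 50.8% of interspersed repeats that rose, and the largest fold changes belonged to entries with few counts. LTR22C had 34 and 43 counts in primed and 193 and 85 in RSeT libraries, or 2.02 and 3.16 against 5.04 and 4.94 CPM (1.11, SE 0.22; adjusted p = 0.00021). LTR22B2 had 2.55 and 2.13 against 4.46 and 3.26 CPM (0.89, SE 0.23), a call lost without RSeT replicate 1 (0.59). LTR22E (0.39), LTR22B (0.35) and LTR22C2 (0.49) rose as well. The calls of LTR22B and LTR22C2 were lost under interspersed scaling (0.19 and 0.32), with library totals (0.22 and 0.35) and in both limma fits. That of LTR22C2 was also lost in DESeq2 (0.52) and without primed replicate 1 (0.45). Under interspersed scaling LTR22B1 passed as lower (-0.35, and -0.32 with library totals, against -0.18 with TMM). LTR22, LTR22A and LTR22C0 did not pass under either.

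**Figure D3:**
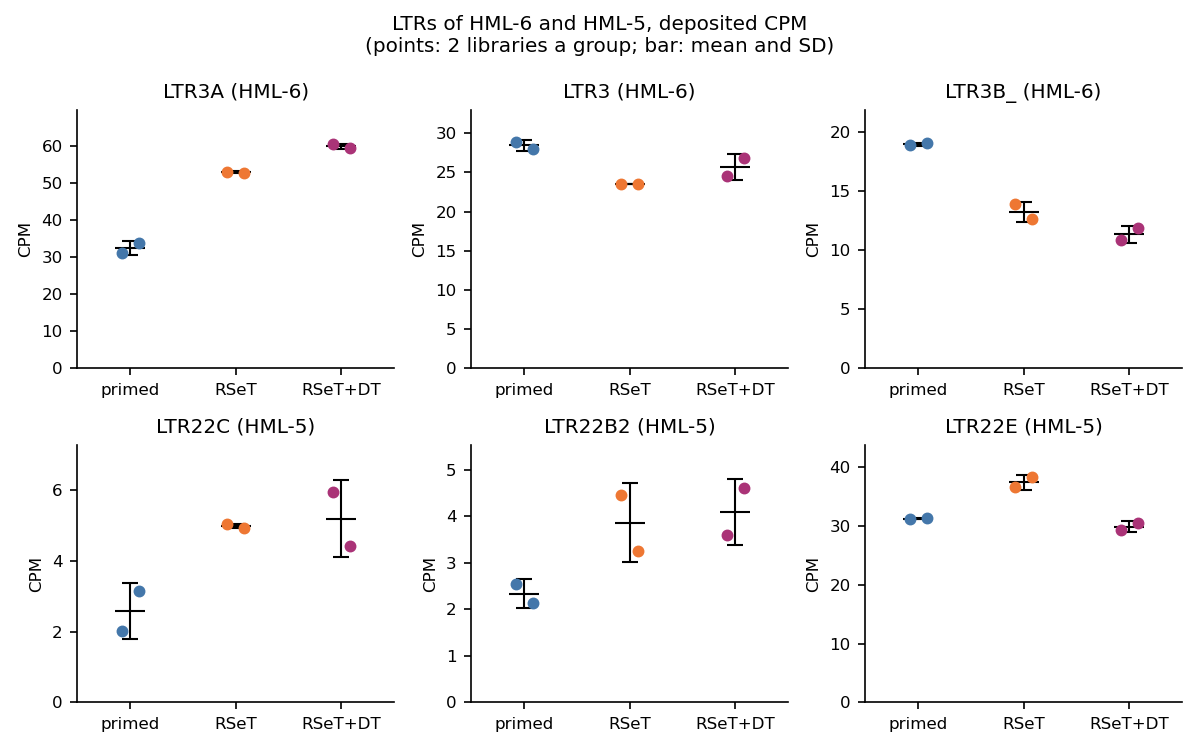
Deposited CPM (vertical axes, from 0) of 3 LTRs of HML-6 and 3 of HML-5; points are the 2 libraries of each condition and bars the mean and SD. LTR3A has means of 32.4, 52.9 and 59.9 CPM in primed, RSeT and RSeT+DT cells, and LTR3B_ of 18.9, 13.2 and 11.3 CPM.

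In the remaining families, LTR14C of HML-9 went from 12.5 and 12.5 to 17.7 and 17.2 CPM and rose by 0.62 (SE 0.12; adjusted p = 0.00011). MER9a1 of HML-3 rose by 0.43, while MER9a2 (-0.030), MER9a3 (0.098) and MER9B (0.33) did not pass with TMM. MER9a2 passed as lower under interspersed scaling (-0.19) and MER9a3 as higher with RLE (0.12). The HML-4 LTRs LTR13 (328 and 354 to 258 and 263 CPM; -0.26) and LTR13A (-0.24) fell, as HERVK13-int did, and LTR13_ did not pass (-0.072). MER11D of HML-7 fell from 43.0 and 42.2 to 33.8 and 31.9 CPM (-0.24, SE 0.074) where HERVK11D-int rose. Its call was lost in DESeq2 (-0.21), without primed replicate 1 (-0.19) and without RSeT replicate 2 (-0.18). LTR14A, LTR14B and LTR14 did not pass with TMM (0.063, -0.010 and -0.030), and LTR14B passed as lower under interspersed scaling (-0.17).

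**Figure D4:**
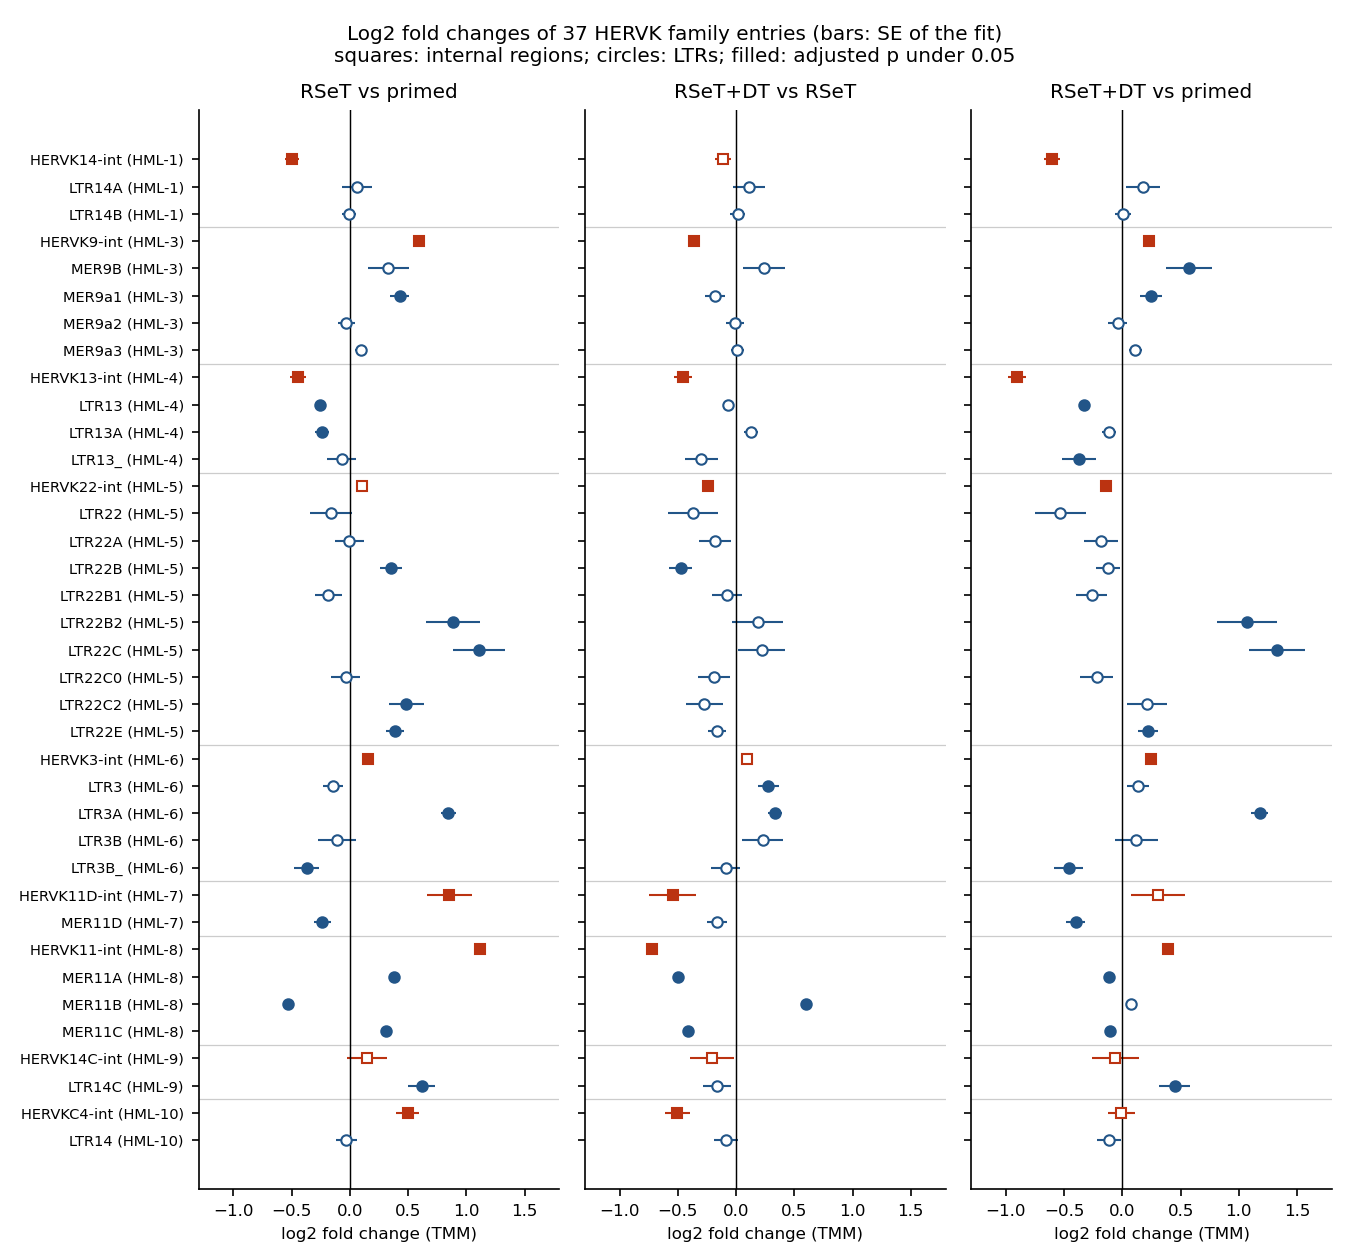
Log2 fold changes with TMM (horizontal axes) of the 37 entries in the 3 comparisons; squares are internal regions, circles LTRs, bars the SE, and filled symbols passed the test. MER11B stands at -0.53 for RSeT against primed and 0.60 for RSeT+DT against RSeT, and HERVK11-int at 1.11 and -0.73.

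The second comparison, RSeT+DT against RSeT, shows the cells after 48 hours with both inhibitors. Of the 37 entries 3 rose, 9 fell and 25 did not pass, or 8.11% and 24.3%. Among all tested repeats 25% rose and 17.4% fell, and among interspersed repeats 5.55% rose and 54.7% fell. Medians were -0.16 for the entries, -0.22 for interspersed repeats and 0.027 for all. The balance turned with the scaling, to 12 up and 7 down under interspersed scaling and 2 up and 18 down with library totals. None of the internal regions rose and 6 fell, while 3 LTRs rose and 3 fell. With interspersed scaling 1 internal region and 11 LTRs rose, and 4 internal regions and 3 LTRs fell.

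HERVK11-int fell from 525 and 524 to 261 and 309.7 CPM (-0.73, SE 0.048; adjusted p = 9.9e-12), at percentile 3.08 of the interspersed repeats. It passed as lower under interspersed scaling (-0.51) and with library totals (-0.88) too. HERVKC4-int (-0.50, SE 0.11; -0.29 under interspersed scaling), HERVK13-int (-0.46, SE 0.076; -0.24) and HERVK9-int (-0.36, SE 0.038; -0.14) also fell under both scalings. Of these, HERVK13-int had already been lower in RSeT than in primed cells and reached 27.4 and 29.5 CPM.

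The other 2 falls of internal regions rested on the settings. HERVK22-int went from 142 and 141 to 104 and 111 CPM (-0.24, SE 0.046) and had no call under interspersed scaling (-0.025). HERVK11D-int went from 214 and 89 to 45 and 37 counts (-0.55, SE 0.20; adjusted p = 0.031). Its call was lost under interspersed scaling (-0.33), in DESeq2 (-0.58), with no filter on low counts (-0.59), without RSeT replicate 1 (-0.47), without RSeT+DT replicate 1 (-0.62) and without RSeT+DT replicate 2 (-0.47). HERVK14-int (-0.11) and HERVK14C-int (-0.21) did not pass with TMM. HERVK14-int passed as lower with library totals (-0.26), in limma (-0.25 and -0.26) and at a mean count of at least 50 (-0.17), and stood at 0.11 under interspersed scaling. HERVK3-int (0.089) did not pass with TMM, passed as higher under interspersed scaling (0.31) and was at -0.064 with library totals.

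MER11B again went opposite to the rest of HML-8. It rose by 0.60 (SE 0.044; adjusted p = 5.1e-11), at percentile 99.1 of the interspersed repeats, while MER11A fell to 145 and 157 CPM (-0.50, SE 0.040) and MER11C to 319 and 341 CPM (-0.41, SE 0.042). These 3 directions and calls held under interspersed scaling and library totals. 7SLRNA rose by 0.64 (SE 0.040) in the same comparison. LTR3A rose by 0.33 (SE 0.063), a call lost in limma on the deposited CPM (0.18). LTR3 went from 23.5 and 23.6 to 24.5 and 26.8 CPM and passed at 0.27 (SE 0.091). Its call was lost with library totals (0.12), with no filter on low counts (0.23), in DESeq2 (0.23) and in limma (0.12 and 0.12). It was also lost without RSeT replicate 1 (0.29), without RSeT replicate 2 (0.27) and without RSeT+DT replicate 2 (0.25). LTR22B fell from 25.9 and 28.5 to 16.7 and 18.2 CPM (-0.48, SE 0.10). LTR22C (0.22, SE 0.20) and LTR22B2 (0.18, SE 0.22), higher in RSeT than in primed cells, did not pass here. LTR13 did not pass with TMM (-0.074). With interspersed scaling it passed as higher (0.15), and library totals put it among the lower ones (-0.23).

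The third comparison, RSeT+DT against primed, reuses libraries of the other comparisons, and its values are given beside theirs. Of the 37 entries 10 were higher and 9 lower, or 27% and 24.3%. Among all tested repeats 25.1% were higher and 20.6% lower, and among interspersed repeats 24.4% and 34.3%. The split was 12 and 5 under interspersed scaling and 3 and 21 with library totals, and without primed replicate 1 or without RSeT replicate 2 only 5 were lower.

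Of the 19 calls 8 were kept in all 17 alternatives. Higher were LTR22C (1.33, SE 0.24), LTR3A (1.18, SE 0.071) and LTR22B2 (1.07, SE 0.26). Lower were HERVK13-int (-0.90, SE 0.077), HERVK14-int (-0.61, SE 0.067), LTR3B_ (-0.46), MER11D (-0.40) and LTR13 (-0.33). In none of these 8 did the CPM of RSeT+DT and primed libraries overlap. Lack of overlap does not set these 8 apart, since most of the family entries showed it, also some with hardly any change. Examples are LTR14B (0.0044) and HERVKC4-int (-0.0089).

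The other 11 calls were lost in at least 1 alternative. HERVK11-int (0.39), HERVK9-int (0.23) and HERVK3-int (0.24) passed as higher with TMM and not with library totals (0.10, -0.056 and -0.042), and their CPM overlapped between the groups. MER9a1 (0.25) and LTR22E (0.22) were below 0 with library totals (-0.039 and -0.065). MER9a1 also lost its call without primed replicate 1 (0.20) or RSeT+DT replicate 1 (0.22), and LTR22E without any one of the primed or RSeT+DT libraries (0.20 to 0.26). The calls of MER9a1 and LTR22E were lost as well in DESeq2 (0.23 and 0.21) and with no filter on low counts (0.22 and 0.19). The same held at a mean count of at least 50 (0.17 and 0.14), and both entries were below 0 in the limma fits. MER9B (0.57) was lost without primed replicate 1 (0.55) and without either RSeT+DT library (0.59 and 0.59), and LTR14C (0.45) without RSeT+DT replicate 2 (0.30). Both were also lost with library totals (0.29 and 0.17) and in limma, and MER9B in DESeq2 (0.56) and with no filter on low counts (0.55). The CPM of LTR14C overlapped, with 12.2 in 1 RSeT+DT library against 12.5 and 12.5 in the primed ones.

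The 4 remaining ones were lower with TMM and lost under interspersed scaling. LTR13_ (-0.37) was lost without any one of the 6 libraries (-0.41 to -0.31), and MER11C (-0.10) likewise (-0.11 to -0.069). MER11A (-0.12) was lost without either primed library (-0.12 and -0.10), RSeT replicate 2 (-0.097) or RSeT+DT replicate 1 (-0.070). HERVK22-int (-0.14) was lost without primed replicate 1 (-0.10), RSeT replicate 2 (-0.12) or RSeT+DT replicate 1 (-0.11). MER11B (0.076), HERVKC4-int (-0.0089), HERVK11D-int (0.31) and HERVK14C-int (-0.063) did not pass with TMM. 7SLRNA (0.21, SE 0.040) and 7SK (0.29, SE 0.028) passed as higher with TMM in this comparison, where MER11B did not, although their CPM overlapped. MER11B gained calls in opposite directions. It passed as higher under interspersed scaling (0.13), with the replicate block (0.077), without primed replicate 1 (0.18) and without RSeT+DT replicate 2 (0.18), and as lower with library totals (-0.21) and in limma (-0.21). HERVKC4-int passed as lower with library totals (-0.29) and in limma (-0.28).

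The LTR-to-internal ratio of a family, the log2 of summed LTR CPM over internal-region CPM in a library, does not depend on how libraries are scaled. It is given as values without a test. An exact permutation test of 2 against 2 libraries cannot go below p = 0.333. In HML-8 without MER11B it was 1.24 and 1.25 for primed, 0.45 and 0.48 for RSeT and 0.83 and 0.69 for RSeT+DT, so the share of internal-region RNA was highest in RSeT cells. HML-7 had 3.69 and 3.71, 2.60 and 2.62 and 2.94 and 3.05, and HML-3 -0.64 and -0.71, -1.12 and -1.14 and -0.76 and -0.83. In all 3 families the groups did not overlap and RSeT+DT lay between the others.

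HML-1 and HML-4, whose internal regions fell, had the opposite order between primed and RSeT cells. HML-1 had -0.041 and -0.17 for primed, 0.37 and 0.43 for RSeT and 0.63 and 0.44 for RSeT+DT, and HML-4 2.71 and 2.75, 2.98 and 2.85 and 3.37 and 3.32. HML-6 climbed in the same order, with -0.59 and -0.62, -0.47 and -0.50 and -0.28 and -0.34. Over the 9 families RSeT was above primed in 5 and below in 4. RSeT+DT was above RSeT in 7 and overlapped with it in HML-5 and HML-9. The gap was small in HML-1 (0.44 against 0.43). HML-8 is counted here with MER11B, and it had the same directions without it. The ratio was not computed for retroviruses outside these 9 families, so the counts do not show a trait particular to them.

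**Figure D5:**
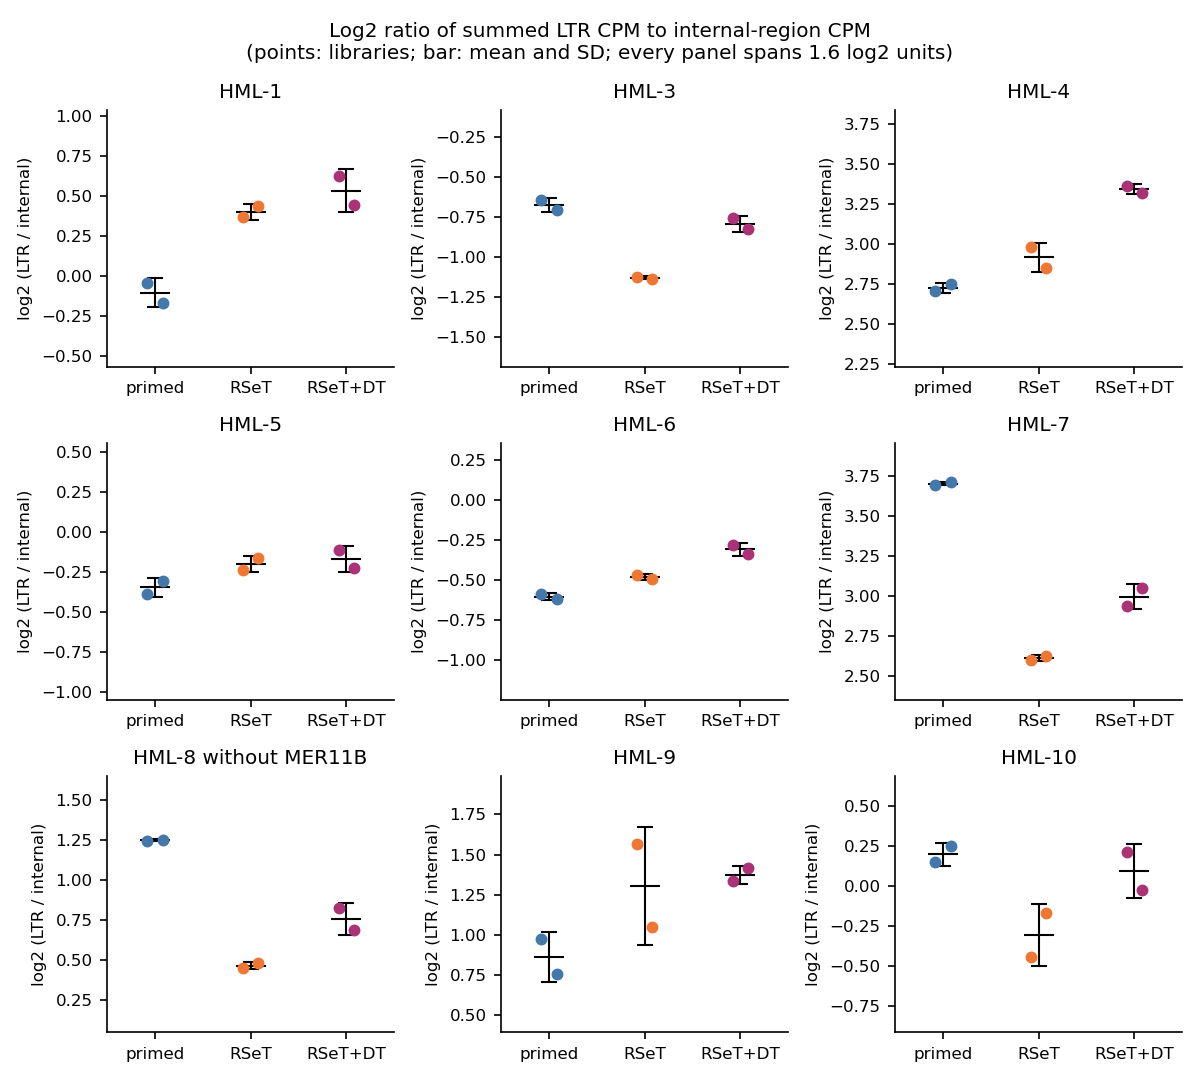
Log2 ratio of summed LTR CPM to internal-region CPM in each family (vertical axes of equal span that do not start at 0); points are libraries and bars the mean and SD. RSeT cells are lowest in HML-3, HML-7, HML-10 and HML-8 without MER11B (means -1.13, 2.61, -0.30 and 0.47), and HML-4 climbs from 2.73 to 2.92 and 3.34.

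The HML-2 relatives are given for scale. From primed to RSeT cells HERVK-int had a fold change of 5.98 and LTR5_Hs of 3.66, while the largest among the 37 entries was 1.11. The older HML-2 LTRs LTR5A (0.089) and LTR5B (0.019) did not pass there with TMM. After the treatment LTR5A went from 169.7 and 175 to 112 and 115 CPM (-0.45, SE 0.043). With TMM LTR5B also fell (-0.13), LTR5 (0.32) and LTR5_Hs (0.20) rose, and HERVK-int did not pass (-0.056). These depended on the scaling. LTR5 and LTR5_Hs did not pass with library totals (0.17 and 0.045), and the CPM of LTR5_Hs overlapped. LTR5B did not pass under interspersed scaling (0.093). HERVK-int passed as higher under interspersed scaling (0.16) and as lower with RLE (-0.097) and library totals (-0.21). The difference between HML-2 and the other families was not tested.

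Of the 20 names from MER90 to MER99, 9 were called higher and 3 lower for RSeT against primed, none higher and 11 lower for RSeT+DT against RSeT, and 5 higher and 9 lower for RSeT+DT against primed. These are 45% and 15%, 0% and 55%, and 25% and 45%, beside 50.8% and 8.01%, 5.55% and 54.7%, and 24.4% and 34.3% of interspersed repeats. Under interspersed scaling the counts were 5 and 8, 3 and 1, and 5 and 7. MER92C, an LTR of a class I retrovirus, had 4.75 and 4.11 CPM in primed and 9.27 and 11.2 CPM in RSeT cells (1.30, SE 0.16). MER97c, a hAT DNA transposon, had 9.98 and 8.59 CPM in primed against 20.4 and 19.4 CPM in RSeT cells (1.22, SE 0.12). Both were chosen as examples after their values were seen.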

How the data were processed

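The authors deposited raw counts per repeat name and a table of CPM for 6 libraries. The deposited CPM equal counts scaled to the summed counts of the listed names within 0.00442, and listed names total at least 10 counts. Per the submitters' processing notes, the tools named are STAR 2.7.8a, Trimmomatic 0.39, Subread 2.14.2 and featureCounts, with build GRCh38/hg38. Repeat annotation, strand setting and handling of multi-mapping reads: not given in the sources used here. Related subfamilies can share reads.

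Raw counts were fitted in edgeR 4.0.16 (R 4.3.3) by quasi-likelihood with TMM and filterByExpr (minimum count 10, total 15). The 6 libraries shared 1 model of group, with 3 residual degrees of freedom. P-values were Benjamini-Hochberg adjusted over 4665 repeats, threshold 0.05, and SE was taken from the fold change and F. Between replicates, chi-square per degree of freedom over the family entries was 8.95 for primed, 5.84 for RSeT and 8.35 for RSeT+DT. This exceeds sampling noise for the set that includes MER11B, which held most of the counts. The share of MER11B in family CPM was 89.6 and 88.3% in primed, 82.5 and 81.4% in RSeT and 90.1 and 88.7% in RSeT+DT libraries. Whether the other entries differed beyond sampling noise was not tested.

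Members, lists and families were chosen with earlier results of these data known. Full values go to internal regions and to LTRs that pass with a log2 fold change of at least 0.5 in size in any comparison; other entries are examples. The 17 alternatives per comparison were RLE, library totals, interspersed scaling, no filter, a mean count of 50 or more, DESeq2 1.42.0, limma 3.58.1 on log2(CPM + 1) and log2(CPM + 0.1), a replicate block, a fit of the compared groups alone, thinning of RSeT replicate 1, and leaving out each library. Leaving out MER11B from sums, and counting MER90 to MER99 in, were added after seeing the data. No element sequences were used here.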

Additional observations from a re-analysis of the deposited data

How the results depend on the processing

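Counts of entries called depended on the scaling, the tool and the names counted. For RSeT against primed, 11 were lower under interspersed scaling, and 24 were higher when every name of the pattern was counted. For RSeT+DT against RSeT, 12 were higher under interspersed scaling and 1 with limma on log2(CPM + 1) and also on log2(CPM + 0.1), and 18 were lower with library totals, 15 at a mean count of at least 50, 19 in each limma fit and 20 with every name of the pattern. For RSeT+DT against primed, 3 were higher with library totals and in each limma fit, and 21 were lower with library totals and in each limma fit, 5 under interspersed scaling and 18 with every name of the pattern. Leaving out 1 library gave 13 to 17 higher and 5 to 7 lower for RSeT against primed, 2 to 3 and 8 to 9 for RSeT+DT against RSeT, and 7 to 10 and 5 to 7 for RSeT+DT against primed. With the replicate block the counts were 16 higher and 7 lower, 3 and 9, and 11 and 9; same-numbered libraries deviated together with r of 0.089, -0.038 and -0.0032, so the numbers were not taken to pair samples. Summed CPM in primed, RSeT and RSeT+DT cells was 2529.8, 2843 and 2081 without MER11B, 24310.5, 17089 and 20741 with every name of the pattern, and 36993.5, 22915 and 31926.5 per summed interspersed counts on the CPM scale (4084, 4138 and 3373 without MER11B). Signs turned for small changes, listed here for the entries given full values. For RSeT against primed these were HERVK14C-int (-0.031 interspersed scaling, -0.041 without RSeT replicate 2), HERVK22-int (-0.030 library totals, -0.059 interspersed scaling, -0.030 and -0.030 limma) and HERVK3-int (-0.0068 interspersed scaling). For RSeT+DT against RSeT they were HERVK14-int (0.11), HERVK14C-int (0.026) and LTR14C (0.049) under interspersed scaling, HERVK3-int (-0.064 library totals, -0.064 and -0.064 limma), and LTR14C (0.0054) and LTR22C (-0.040) without RSeT+DT replicate 1. For RSeT+DT against primed they were, with library totals and the limma fits, HERVK3-int (-0.042, -0.042, -0.042), HERVK9-int (-0.056, -0.057, -0.057) and MER11B (-0.21, -0.21, -0.21). Without primed replicate 2 they were HERVK14C-int (0.026), HERVKC4-int (0.015) and MER11B (-0.0039), and without RSeT+DT replicate 1 HERVK14C-int (0.078) and HERVKC4-int (0.12). HERVKC4-int also turned under interspersed scaling (0.049) and without RSeT replicate 2 (0.012), and MER11B at a mean count of at least 50 (-0.0040). Leaving out 1 library at a time, the other ends of these ranges were 0.41 for HERVK14C-int in RSeT against primed, -0.33 and 0.44 for LTR14C and LTR22C in RSeT+DT against RSeT, and -0.17, -0.11 and 0.18 for HERVK14C-int, HERVKC4-int and MER11B in RSeT+DT against primed. The cause was not tested. Of the calls, 16 of 22, 8 of 12 and 8 of 19 were kept in all 17 alternatives of the 3 comparisons. Entries with few counts, such as LTR22B2 (29 counts in primed replicate 2), limit the precision.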
